A study of Mus musculus with 12 samples.

Results

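The genes examined here encode the mouse receptors for the constant (Fc) part of immunoglobulin G and the signalling chain that serves them: Fcgr1, Fcgr2b, Fcgr3, Fcgr4 and Fcer1g. The members are the open chromatin regions that overlap the body of 1 of these 5 genes extended by 20 kb on each side, and 30 of the 121336 regions of the table met that rule. Fcgr2b held 14 regions, Fcer1g 8, Fcgr4 5, Fcgr1 3 and Fcgr3 none. Accessibility was measured by ATAC-seq, in which a transposase cuts open DNA, in 12 libraries of 4 groups with 3 libraries each. WT-LSK and WT-GMP came from wild-type C57BL/6 mice. URE-LSK and URE-GMP came from littermates homozygous for a germline deletion of the upstream regulatory element (URE) of Spi1, the gene of the transcription factor PU.1, and all mice were young adults. LSK, a compartment of early stem and progenitor cells, were sorted as lineage-negative, Sca-1+ and c-Kit+. GMP are lineage-negative Sca-1- c-Kit+ granulocyte-monocyte progenitors that were also sorted as CD16/32+. The antibody against CD16/32 binds the products of Fcgr3 and Fcgr2b, so the GMP gate selects on proteins of these genes and the LSK gate does not. The mice were preleukemic, the deletion was present in all cells of the body, and the cells were sorted from c-Kit-enriched femoral marrow.

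Fc gamma receptors bind immunoglobulin G on coated particles and pass on a signal that is activating or inhibitory. Fcgr1 (CD64, the high-affinity receptor), Fcgr3 (CD16) and Fcgr4 (CD16-2) are activating and depend on the common gamma chain encoded by Fcer1g, whose tyrosine motif (ITAM) recruits Syk. Fcgr2b (CD32b) carries an inhibitory motif (ITIM) that recruits the phosphatase SHIP1, the product of Inpp5d, and is the only member that B cells use. Monocytes, macrophages and neutrophils carry several of these receptors. Fcgr2b, Fcgr3 and Fcgr4 lie next to each other on chromosome 1, Fcer1g lies further along the same chromosome, and Fcgr1 is on chromosome 3.

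Regions are named by gene and by the distance of their centre from the annotated start of the gene, negative upstream and positive into the gene. Several printed stretches carry the letters that the text returns to, namely the promoters of the 4 genes that had a region and 2 other regions of Fcgr2b that moved unlike each other between the groups. Coordinates are GRCm38, all sequences read 5′ to 3′ on the strand of the gene and stop before its first exon where they lie upstream, and capitals mark matches on either strand to the PU.1 motif GAGGAAGT or its core GAGGAA, the RUNX motif AACCACA and the CEBP motif TTGCNNAA. The Fcgr1 promoter stretch is chr3:96293970-96294219 (minus strand), the Fcgr4 promoter stretch chr1:171018710-171018919 (plus strand), the Fcgr2b promoter stretch chr1:170976128-170976190 (minus strand) and the Fcer1g promoter stretch chr1:171234573-171234822 (minus strand). The stretch of Fcgr2b +3.3 kb, in an intron, is chr1:170973040-170973339 and that of Fcgr2b -19.7 kb, between genes, is chr1:170996072-170996371, both minus strand.
Fcgr1 promoter: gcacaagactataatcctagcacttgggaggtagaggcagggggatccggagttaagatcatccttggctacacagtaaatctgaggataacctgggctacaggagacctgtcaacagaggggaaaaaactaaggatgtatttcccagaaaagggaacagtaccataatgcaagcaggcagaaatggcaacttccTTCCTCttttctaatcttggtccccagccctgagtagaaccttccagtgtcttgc
Fcgr4 promoter: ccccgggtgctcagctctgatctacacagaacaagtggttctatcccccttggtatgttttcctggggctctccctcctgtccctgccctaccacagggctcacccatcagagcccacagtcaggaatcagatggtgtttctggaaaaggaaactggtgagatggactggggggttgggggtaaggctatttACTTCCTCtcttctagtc
Fcgr2b promoter: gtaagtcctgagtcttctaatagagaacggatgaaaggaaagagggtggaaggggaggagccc
Fcer1g promoter: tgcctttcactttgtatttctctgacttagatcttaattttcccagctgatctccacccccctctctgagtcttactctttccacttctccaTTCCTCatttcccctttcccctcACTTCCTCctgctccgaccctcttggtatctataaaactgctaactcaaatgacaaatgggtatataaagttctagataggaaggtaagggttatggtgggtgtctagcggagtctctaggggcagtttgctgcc
Fcgr2b +3.3 kb: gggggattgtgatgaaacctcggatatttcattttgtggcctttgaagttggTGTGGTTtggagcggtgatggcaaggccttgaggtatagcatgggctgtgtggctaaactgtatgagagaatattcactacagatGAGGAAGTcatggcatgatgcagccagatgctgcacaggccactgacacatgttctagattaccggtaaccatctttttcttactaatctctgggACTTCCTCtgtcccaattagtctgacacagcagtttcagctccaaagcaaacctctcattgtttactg
Fcgr2b -19.7 kb: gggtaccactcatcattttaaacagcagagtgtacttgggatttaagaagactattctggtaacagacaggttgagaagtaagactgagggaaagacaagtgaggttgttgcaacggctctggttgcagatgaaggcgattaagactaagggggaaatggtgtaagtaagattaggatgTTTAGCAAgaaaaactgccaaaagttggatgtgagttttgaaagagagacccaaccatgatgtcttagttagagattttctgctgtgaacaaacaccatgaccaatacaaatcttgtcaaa
The full PU.1 motif stands once in the Fcgr4 promoter stretch, once in that of Fcer1g and at 2 places in Fcgr2b +3.3 kb. The Fcgr1 promoter stretch holds the shorter core only, and the Fcgr2b promoter stretch holds none of these letters.

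Over all 30 regions, the full PU.1 motif was present in 3 (10.0%, against 10.5% of all 121336 regions), the RUNX motif in 3 (10.0% against 17.3%) and the CEBP motif in 13 (43.3% against 20.5%). Within the central 300 bases, where length is equal, the CEBP motif was in 9 of the 30 (30%) and in 16.4% of all regions, and the PU.1 motif was in 2 (6.67%) and in 8.70%. Among the 32851 RefSeq promoter windows of 300 bases, 3.20% held the PU.1 motif, 5.27% the RUNX motif and 10.8% the CEBP motif. The core GAGGAA, searched after the values were seen and contained in the full motif, was in 13 of 30 regions (43.3% against 46.9%). It stood in 7 of the 8 regions that were lower in URE-GMP and in 9 of the 14 that were lower in URE-LSK. The 3 regions with the full motif were all lower in URE-LSK, and 1 of them was lower in URE-GMP. These are letter matches, and a link between them and the calls was not tested. How often all regions called lower hold these letters was not computed, so the counts by call have no share to be read against.

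Total counts per library ranged from 23072701 to 62204826, and 3 counts corresponded to between 0.0520 and 0.126 CPM, the counts of a region relative to the library size after TMM scaling. The 3 regions 13.4 to 15.5 kb upstream of the canonical Spi1 start site, at the deleted element, held 0 to 6 counts in the 6 URE libraries and 115 to 2110 in the 6 WT libraries, as the labels say. The summed CPM of 6 GMP marker genes was 273 to 345 for WT-GMP and 410 to 424 for URE-GMP, against 78.1 to 86.6 for WT-LSK and 65.1 to 96.0 for URE-LSK. The sum over 7 of 8 LSK markers with a region was 288 to 298 for WT-LSK, 314 to 352 for URE-LSK, 223 to 257 for WT-GMP and 242 to 252 for URE-GMP, and Ly6a, which encodes Sca-1, had no region within 5 kb of its start. The 6 monocyte and macrophage markers summed to 47.0 to 56.7 for WT-LSK, 32 to 35.6 for URE-LSK, 95.7 to 105 for WT-GMP and 96.6 to 102 for URE-GMP. Markers of other cell types summed to 9.08 to 11.8 in LSK and 14.4 to 17.8 in GMP for 4 of 5 B cell markers, 7.38 to 13.1 in WT and 23.8 to 34.5 in URE for 2 of 5 mast cell and basophil markers, and 9.03 to 10.4 for WT-LSK, 0.523 to 1.03 for URE-LSK, 8.96 to 9.87 for WT-GMP and 2.62 to 6.54 for URE-GMP for 2 of 4 NK and T cell markers. No gene of these lists that had a region was at 0 in the mean of a group. URE-LSK replicate 3 stood apart, with a GMP marker sum of 96.0 against 65.1 and 68.6 in the other 2 libraries, and URE-GMP replicate 2 stood apart at Fcgr2b +37.1 kb, Fcgr2b -12.3 kb and Fcgr1 -6.9 kb. Their values are given beside the results they touch, and the part that a shift in cell makeup has in those results was not tested. In bulk libraries, fewer cells of a type with open chromatin and less accessibility per cell cannot be told apart.

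The first comparison asked how loss of the Spi1 enhancer changes these genes in LSK. Calls required more than 2-fold and an adjusted p below 0.05 by edgeR's quasi-likelihood test, adjusted over all 121336 regions. In URE-LSK 14 of the 30 regions (46.7%) were lower, where 23.9% of all regions were, and 4 (13.3%) were higher, where 13.6% of all regions were. The median log2 fold change was -0.86, against 0.14 over all regions. In URE-GMP 8 regions (26.7%) were lower and 6 (20%) higher, against 24.1% and 15.6% of all regions, with a median of 0.23 against 0.055. The regions lower in both cell types were 8 (26.7%, against 18.7% of all regions) and those higher in both were 3 (10%, against 8.45%). A further 6 regions (20%, against 5.11% of all regions) were lower in URE-LSK and not called in URE-GMP, and no region was called in opposite directions, as 0.160% of all regions were. By gene, lower calls in LSK went to 8 of 14 regions of Fcgr2b, 2 of 5 of Fcgr4, 2 of 8 of Fcer1g and 2 of 3 of Fcgr1.

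**Figure D1:**
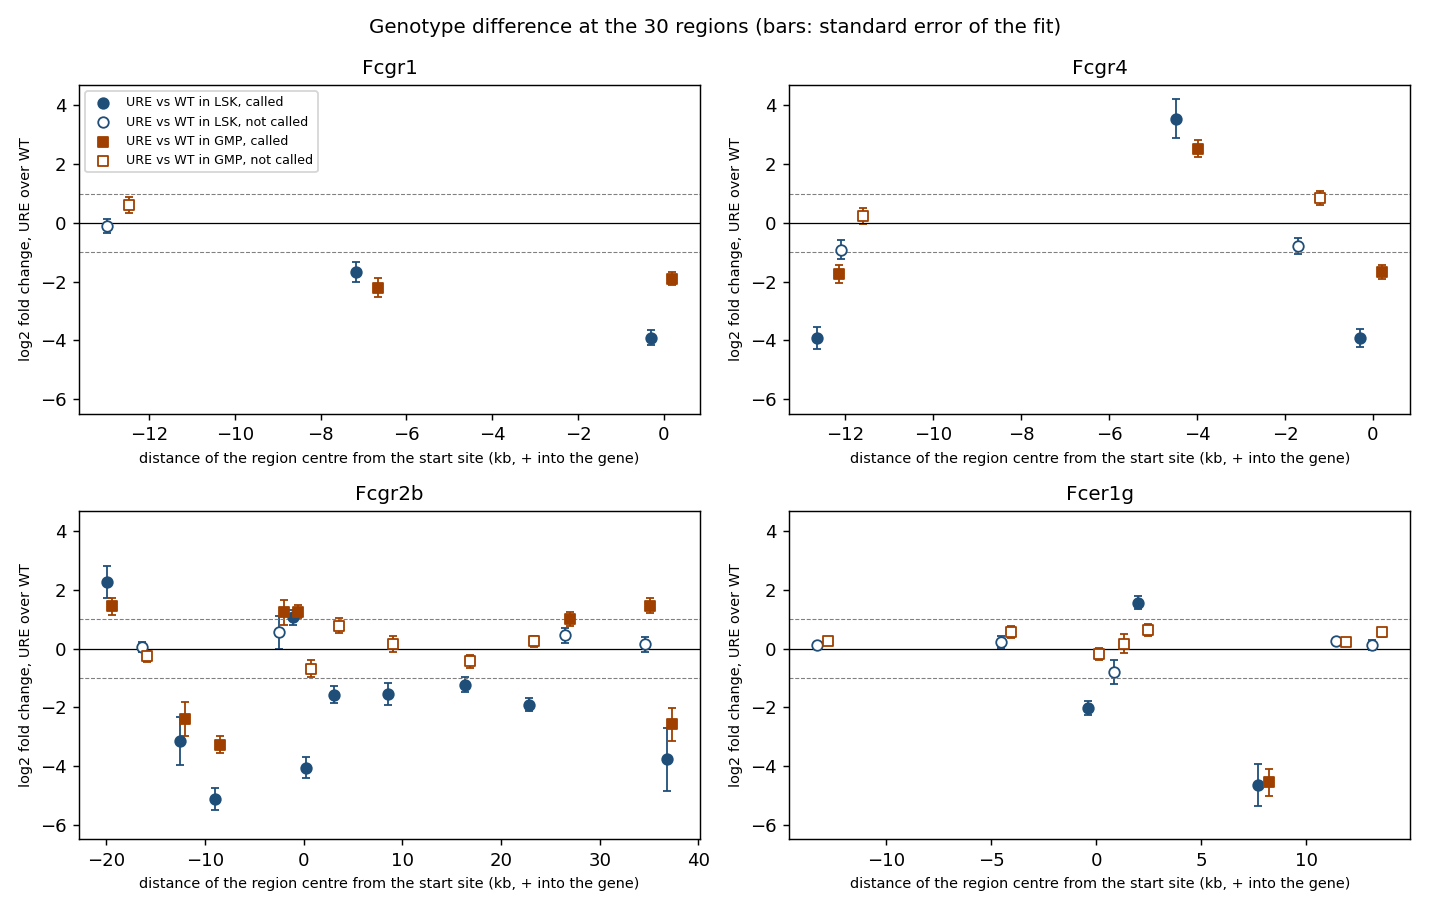
Genotype difference (log2 fold change of URE over WT, vertical axis) at the 30 regions against the distance of the region centre from the start site in kb (horizontal axis), in 1 panel per gene, with circles for LSK and squares for GMP, filled where called and open where not, and bars for the standard error. The 14 lower LSK calls include all 4 promoters, while 6 regions, among them Fcgr4 -4.2 kb and Fcgr2b -19.7 kb, were called higher in GMP.

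All 4 promoter regions were lower in URE-LSK, by 4.08-fold at Fcer1g and by 15.1-fold to 16.6-fold at Fcgr1, Fcgr4 and Fcgr2b. In URE-GMP the promoters of the 2 activating receptors Fcgr1 and Fcgr4 were still called lower, and those of Fcgr2b and Fcer1g were not. The genotype difference was smaller in GMP than in LSK at each of the 4 promoters, with the interaction called at every one (8.96% of all regions had a higher call and 5.03% a lower one).

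At the Fcgr1 promoter (Fcgr1 -0.1 kb, chr3:96293756-96294300, first coding exon and 5′ end), which drives the high-affinity receptor, the 3 libraries read 15.6, 18.5 and 17.7 CPM for WT-LSK, 0.714, 1.73 and 1.03 for URE-LSK, 15, 13.8 and 15.1 for WT-GMP, and 3.81, 4.81 and 3.10 for URE-GMP. The URE libraries of each cell type lay below all WT libraries of that type, and URE-GMP lay above URE-LSK. The log2 fold change was -3.92 ± 0.25 (SE, adjusted p = 9.08e-09) in LSK and -1.90 ± 0.22 (adjusted p = 3.36e-06) in GMP. In order, WT-LSK and WT-GMP were highest and did not differ past the threshold (log2 difference of GMP over LSK -0.24, adjusted p = 0.343), followed by URE-GMP and then URE-LSK.

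The Fcgr4 promoter (chr1:171018710-171019057, across the start site) read 3.10, 3.83 and 2.86 CPM for WT-LSK, 0.214, 0.307 and 0.128 for URE-LSK, 6.57, 4.03 and 6.08 for WT-GMP, and 1.79, 1.93 and 1.48 for URE-GMP. The 4 groups did not overlap, in the order WT-GMP, WT-LSK, URE-GMP and URE-LSK. URE over WT was -3.92 ± 0.32 (adjusted p = 6.03e-08) for LSK and -1.67 ± 0.24 (adjusted p = 2.66e-05) for GMP on the log2 scale. From WT-LSK to WT-GMP it was 0.77 ± 0.24 (adjusted p = 0.0114), under the fold threshold.

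The Fcgr2b promoter (Fcgr2b +0.5 kb, chr1:170975946-170976232) covers the start site of the shorter transcripts of this inhibitory receptor, while its distance is counted from the longest one. It read 7.35, 7.38 and 7.28 CPM for WT-LSK, 0.0952, 0.782 and 0.470 for URE-LSK, 11.2, 9.21 and 8.74 for WT-GMP, and 6.03, 6.82 and 5.16 for URE-GMP. Every URE library was below every WT library of its cell type. On the log2 scale the genotypes differed by -4.05 ± 0.36 within LSK (adjusted p = 1.55e-07) and by -0.69 ± 0.29 within GMP (adjusted p = 0.0479), so the GMP value did not reach 2-fold. Without URE-LSK replicate 2 the LSK value was -4.65. An exon of the antisense gene Gm38204 overlaps this region, and ATAC-seq counts have no strand.

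The Fcer1g promoter (Fcer1g -0.1 kb, chr1:171234194-171234822) read 8.69, 7.75 and 9.01 CPM for WT-LSK, 1.83, 1.17 and 3.16 for URE-LSK, 20.2, 17.2 and 16.2 for WT-GMP, and 15.1, 16.7 and 15.4 for URE-GMP. The URE-LSK libraries lay below all others, and the GMP groups overlapped. Between genotypes, LSK had a log2 fold change of -2.03 ± 0.24 (adjusted p = 3.08e-06) and GMP one of -0.18 ± 0.22 (adjusted p = 0.479). Per kb of region, WT-GMP stood at 28.4 CPM at the Fcer1g promoter, 33.8 at that of Fcgr2b, 26.8 at that of Fcgr1 and 16 at that of Fcgr4.

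**Figure D2:**
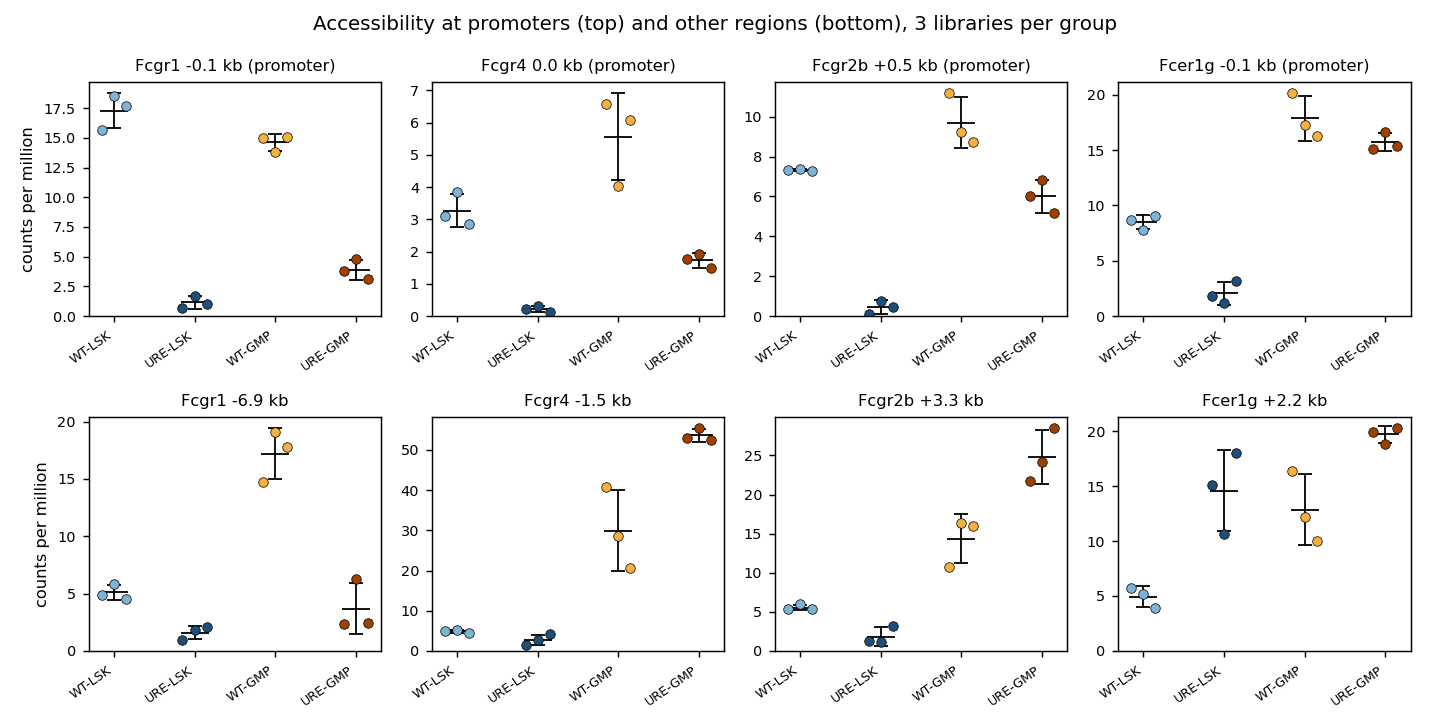
CPM in each library (points, 3 per group), with the mean (wide tick) and SD (bars), at the 4 promoters in the upper row and at 1 other region of each gene in the lower row, with a separate vertical scale starting at 0 in each panel. The URE-LSK points lie below the WT-LSK points in 7 panels, whereas at Fcer1g +2.2 kb they lie above them, at 10.7 to 18 against 3.92 to 5.75.

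The next comparison was the step from LSK to GMP. In WT 17 of the 30 regions (56.7%) were higher in GMP and 1 (3.33%) was lower, against 21% and 16.8% of all regions. In URE 21 (70.0%) were higher and none was lower, against 27.6% and 21.6% of all regions. The median log2 fold change was 1.33 in WT and 2.29 in URE, with -0.0060 and 0.028 over all regions. The single lower call was Fcgr1 -12.7 kb (1.44, 1.75 and 1.59 CPM for WT-LSK, 0.586, 0.525 and 0.438 for WT-GMP, log2 fold change -1.63 ± 0.26, adjusted p = 8.15e-05). In URE the same region had a log2 fold change of -0.91 (adjusted p = 0.00369), which passed 2-fold with loess offsets (-1.22) and with GC content offsets (-1.17). The 2 steps share no library, and the genotype comparisons share their libraries with them. The GMP were sorted for CD16/32 and the LSK were not, so the gate and the step cannot be told apart. URE-GMP and WT-GMP both passed this gate. Its part in the GMP genotype differences and in the interaction was not tested.

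The log2 fold change of URE over WT was called higher in GMP than in LSK at 11 regions (36.7%, against the 8.96% above) and lower at none of the 30, where 5.03% of all regions were. With GC content offsets, 1 region joined in the other direction, Fcer1g +2.2 kb. The 11 regions were the 4 promoters, 5 other regions of Fcgr2b and 2 of Fcgr4. The interaction, the log2 fold change in GMP minus that in LSK, was largest at the Fcgr2b promoter at 3.37 ± 0.46 (adjusted p = 0.000209), followed by Fcgr2b +3.3 kb at 2.35 ± 0.40 (adjusted p = 0.00108), the Fcgr4 promoter at 2.25 ± 0.41 (adjusted p = 0.0016) and Fcgr4 -12.4 kb at 2.20 ± 0.49 (adjusted p = 0.00649). At the Fcgr1 and Fcer1g promoters it was 2.02 ± 0.33 and 1.84 ± 0.32. Without URE-LSK replicate 2 the value was 3.96 at the Fcgr2b promoter and 2.85 at Fcgr4 -12.4 kb, and without URE-LSK replicate 3 it was 3.03 at Fcgr2b +3.3 kb.

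**Figure D3:**
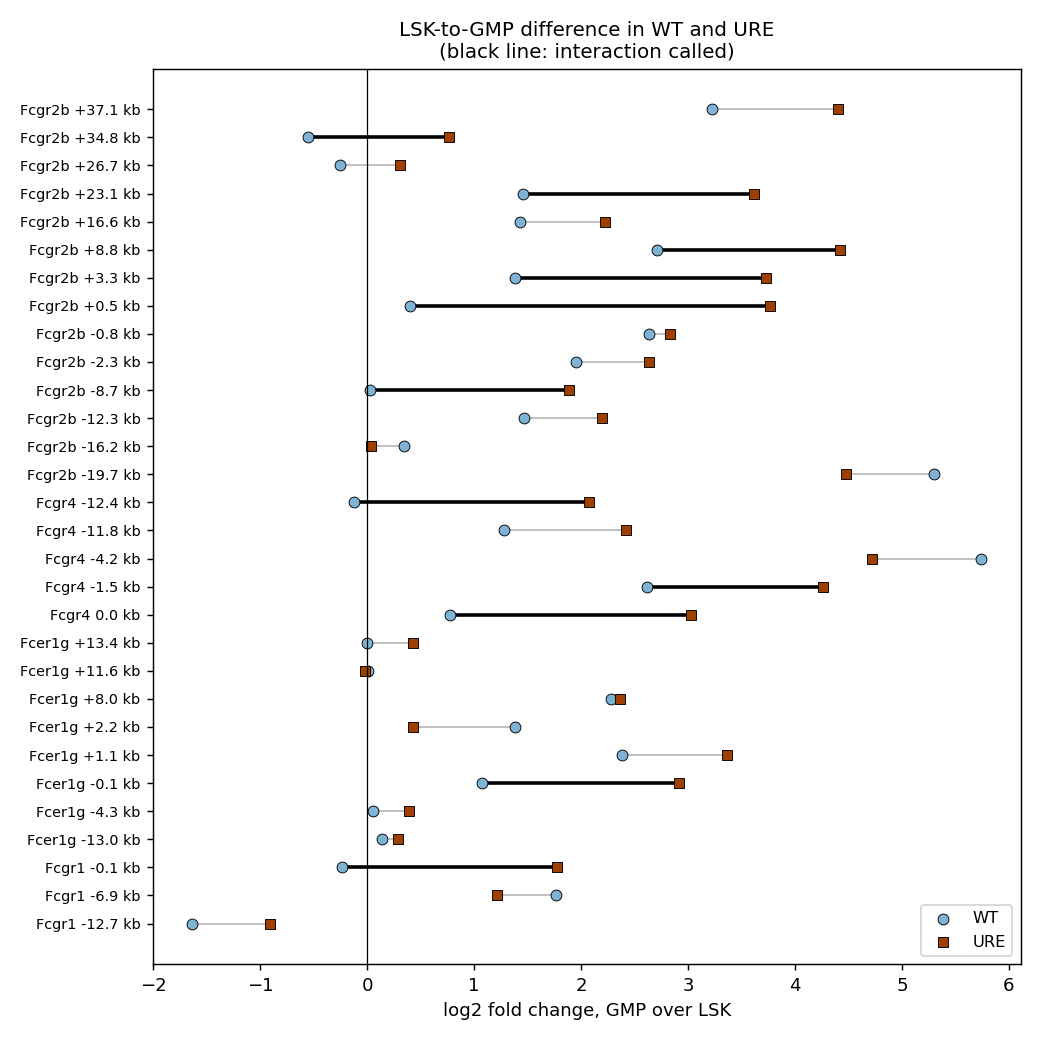
The log2 fold change of GMP over LSK (horizontal axis) at each of the 30 regions, with a circle for WT, a square for URE and a line joining them that is black at the 11 regions whose interaction was called. At 24 of 30 regions the URE square lies to the right of the WT circle, and at Fcgr2b -19.7 kb and Fcgr4 -4.2 kb, the 2 largest steps in WT, it lies to the left without an interaction call. The share of all regions with the larger value in URE was not computed.

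Within Fcgr2b, the regions from the promoter to 23 kb downstream were all lower in URE-LSK, and none was called between the genotypes in GMP. Their GMP values had both directions, with a log2 fold change of -0.69 at the promoter and 0.78 at Fcgr2b +3.3 kb. Fcgr2b +3.3 kb, the intronic region printed above with 2 PU.1 motifs and the most accessible region of the gene, read 5.35, 5.96 and 5.33 CPM for WT-LSK, 1.24, 1.09 and 3.18 for URE-LSK, 10.7, 16.3 and 15.9 for WT-GMP, and 21.7, 24.1 and 28.5 for URE-GMP. It was the lowest in URE-LSK and the highest in URE-GMP, and neither pair of groups overlapped. URE over WT was -1.57 ± 0.30 (adjusted p = 0.000341) for LSK and 0.78 ± 0.27 (adjusted p = 0.0181, under 2-fold) for GMP on the log2 scale. URE-LSK replicate 3 was the highest of its group here, and without it the LSK value was -2.24. This region overlaps an exon of Gm38204.

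Fcgr2b +8.8 kb, in an intron, read 0.892, 1.51 and 1.31 CPM for WT-LSK, 0.214, 0.307 and 0.705 for URE-LSK, 9.08, 8.98 and 6.06 for WT-GMP, and 8.87, 11.1 and 7.0 for URE-GMP. The LSK groups did not overlap and the GMP groups did. Its log2 fold change was -1.54 ± 0.38 in LSK (adjusted p = 0.00239) and -2.23 without URE-LSK replicate 3. The interaction of 1.71 ± 0.47 (adjusted p = 0.0197) was 2.40 without that library, and without URE-LSK replicate 1 it was 1.40 (adjusted p = 0.0618) and no longer called.

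Fcgr2b +23.1 kb, beyond the 3′ end of the gene, read 2.39, 3.55 and 3.46 CPM for WT-LSK, 0.642, 0.893 and 0.961 for URE-LSK, 8.58, 9.95 and 7.21 for WT-GMP, and 10.8, 10.8 and 9.09 for URE-GMP. The LSK groups were separate and the GMP groups overlapped. URE-LSK fell by 1.90 ± 0.23 on the log2 scale (adjusted p = 3.51e-06), while the GMP value was 0.25 ± 0.19 (adjusted p = 0.270), with an interaction of 2.16 ± 0.30 (adjusted p = 0.000241). The 1 remaining region within the gene, Fcgr2b +16.6 kb, was also lower in LSK, at -1.23.

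Other regions of the Fcgr2b window did not follow the promoter. Fcgr2b -8.7 kb, in an intron of the gene model Gm10522, was lower in URE in both cell types, at 3.04, 4.04 and 3.38 CPM for WT-LSK, 0.143, 0.0837 and 0.0641 for URE-LSK, 3.30, 3.48 and 3.78 for WT-GMP, and 0.387, 0.486 and 0.194 for URE-GMP. All URE libraries lay under 0.5 CPM and all WT libraries over 3. The log2 fold change was -5.13 ± 0.36 in LSK (adjusted p = 1.80e-08), the largest loss among the 30 regions, and -3.27 ± 0.29 in GMP (adjusted p = 2.86e-07). Its interaction of 1.86 ± 0.50 (adjusted p = 0.0182) was not called without URE-GMP replicate 2 (1.56, adjusted p = 0.0621) or without URE-LSK replicate 3 (1.61, adjusted p = 0.0564).

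Fcgr2b -12.3 kb and Fcgr2b +37.1 kb were also lower in both cell types, and URE-GMP replicate 2 stood apart at both. Fcgr2b -12.3 kb read 0.108, 0.590 and 0.0485 CPM for URE-GMP against 1.22 to 1.62 for WT-GMP, and its log2 fold change of -2.41 ± 0.58 (adjusted p = 0.00191) was -4.11 without that library. Its step from LSK to GMP in URE, 2.19 ± 0.85 (adjusted p = 0.0315), was 0.49 (adjusted p = 0.633) without that library, and was not called without URE-LSK replicate 1 (2.40, adjusted p = 0.0567) or replicate 2 (1.72, adjusted p = 0.0958) either. The step in WT, 1.47 ± 0.56 (adjusted p = 0.0330), was called in none of the fits that left out WT-LSK replicate 1, 2 or 3 or WT-GMP replicate 1 or 2, in which it was 1.14 to 1.56. In LSK the genotype value was -3.14 ± 0.81 (adjusted p = 0.00375). It rests on few counts, at 3, 0 and 4 in the URE-LSK libraries against 24, 14 and 18 in WT-LSK.

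Fcgr2b +37.1 kb, nearest to the gene model Gm37030, read 0.446, 0.734 and 0.322 CPM for WT-LSK, 0.0476, 0.0558 and 0 for URE-LSK, 4.52, 4.80 and 4.03 for WT-GMP, and 0.538, 1.56 and 0.0485 for URE-GMP. Replicates 1 and 3 of URE-GMP lay within or under the WT-LSK range and replicate 2 above it. In GMP the log2 fold change was -2.57 ± 0.57 (adjusted p = 0.00102), and -3.87 without URE-GMP replicate 2. In LSK 51 counts in WT faced 4 in URE, a 14.1-fold difference with a 95% exact counting interval of 5.20 to 53.9. The fitted log2 value there was -3.76, and -3.13 (adjusted p = 0.0350) without URE-LSK replicate 3.

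Other regions upstream of the Fcgr2b start were higher in URE. Fcgr2b -0.8 kb, over an exon of Gm38204, read 0.604, 0.693 and 0.925 CPM for WT-LSK, 1.33, 1.73 and 1.69 for URE-LSK, 5.56, 5.20 and 3.37 for WT-GMP, and 11.6, 11.8 and 10.3 for URE-GMP. The URE libraries were above all WT libraries in each cell type. On the log2 scale the genotypes differed by 1.26 ± 0.21 within GMP (adjusted p = 7.58e-05) and by 1.07 ± 0.25 within LSK (adjusted p = 0.00187). The LSK value was under 2-fold without WT-LSK replicate 1 (0.87) or replicate 2 (0.97), and with scaling by library size only (0.95).

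Fcgr2b -19.7 kb, printed above with its CEBP motif, was nearly closed in WT-LSK at 0.105, 0.0408 and 0.101 CPM and read 0.167, 0.363 and 0.748 for URE-LSK, 4.52, 3.46 and 2.93 for WT-GMP, and 9.99, 9.45 and 9.86 for URE-GMP. The 4 groups did not overlap. Between genotypes, LSK had a log2 fold change of 2.26 ± 0.55 (adjusted p = 0.00227) and GMP one of 1.44 ± 0.28 (adjusted p = 0.000351), and the LSK value was 1.52 (adjusted p = 0.0216) without URE-LSK replicate 3, whose GMP marker sum was also the highest of its group. From LSK to GMP it was 5.30 ± 0.45 in WT (adjusted p = 2.36e-07) and 4.48 ± 0.34 in URE (adjusted p = 2.45e-08), and the latter was 5.22 without URE-LSK replicate 3.

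A further 3 regions of the Fcgr2b window were higher in URE-GMP only by the calls, and 1 of them had a called interaction. The other 2, Fcgr2b -2.3 kb (1.24) and Fcgr2b +26.7 kb (1.01), lay near the thresholds and were lost when some single libraries were left out. This was Fcgr2b +34.8 kb, at 1.94, 2.0 and 1.47 CPM for WT-LSK, 2.09, 2.23 and 1.62 for URE-LSK, 1.05, 1.70 and 0.853 for WT-GMP, and 3.51, 3.42 and 3.17 for URE-GMP. The GMP groups were separate and the LSK groups overlapped. URE over WT was 1.47 ± 0.26 (adjusted p = 0.000146) for GMP and 0.15 ± 0.26 (adjusted p = 0.645) for LSK on the log2 scale, with an interaction of 1.32 ± 0.36 (adjusted p = 0.0207). Fcgr2b -16.2 kb had none of the 5 comparisons called, at 3.26 to 5.37 CPM over all 12 libraries.

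Fcgr4, the receptor for IgG2a and IgG2b, showed both directions within 13 kb. Fcgr4 -12.4 kb read 4.64, 4.28 and 5.07 CPM for WT-LSK, 0.214, 0.558 and 0.171 for URE-LSK, 5.90, 3.40 and 3.76 for WT-GMP, and 1.42, 1.56 and 0.848 for URE-GMP. The WT groups overlapped, URE-GMP lay below both and URE-LSK was the lowest. On the log2 scale the genotypes differed by -3.94 ± 0.38 within LSK (adjusted p = 3.01e-07) and by -1.74 ± 0.31 within GMP (adjusted p = 0.000185). Without URE-LSK replicate 2 the LSK value was -4.59.

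Fcgr4 -4.2 kb had the opposite direction, at 0.0787, 0 and 0 CPM for WT-LSK, 0.238, 0.419 and 0.384 for URE-LSK, 1.80, 1.85 and 1.15 for WT-GMP, and 8.76, 10.1 and 8.65 for URE-GMP. The groups did not overlap, and WT-LSK held only 3 counts in all. In GMP the log2 fold change was 2.53 ± 0.28 (adjusted p = 1.94e-06), the largest gain among the 30 regions in GMP. In LSK 43 counts in URE faced 3 in WT, a 12.9-fold difference with a 95% exact counting interval of 4.13 to 65.1. From LSK to GMP in WT it rose 59.0-fold (19.9 to 289, counting error only), with 181 counts against 3. All 3 WT-LSK counts came from replicate 1, so these folds rest on that library. Without it the fitted log2 value, then set against libraries at 0, was 9.03 for this step and 6.87 for the LSK genotype difference (5.74 and 3.55 with all libraries), and without WT-LSK replicate 3 the values were 4.89 and 2.73.

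Fcgr4 -1.5 kb, at 1332 bp the longest of the 30 regions, read 4.85, 5.26 and 4.48 CPM for WT-LSK, 1.59, 2.60 and 4.10 for URE-LSK, 40.7, 28.6 and 20.5 for WT-GMP, and 52.9, 55.5 and 52.4 for URE-GMP. URE lay below WT in LSK and above WT in GMP with no overlap, though neither difference reached 2-fold. Between genotypes, LSK had a log2 fold change of -0.80 ± 0.27 (adjusted p = 0.0201) and GMP one of 0.85 ± 0.23 (adjusted p = 0.0049), and the interaction was 1.65 ± 0.36 (adjusted p = 0.00537). Without URE-LSK replicate 3 the LSK value was -1.22 and was called, and without WT-GMP replicate 1 the GMP value was 1.09 and was called.

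Fcer1g, the chain that Fcgr1, Fcgr3 and Fcgr4 share, lies in a gene-dense window, and some of its 8 regions belong to neighbouring genes. Fcer1g +11.6 kb, the promoter of Tomm40l, stood at 56.1 to 75.9 CPM over all libraries and was not called in any comparison. Within the gene, Fcer1g +2.2 kb differed from the promoter. This intronic region read 5.75, 5.14 and 3.92 CPM for WT-LSK, 15.1, 10.7 and 18 for URE-LSK, 16.4, 12.2 and 10.0 for WT-GMP, and 20, 18.9 and 20.3 for URE-GMP. URE was above WT in both cell types without overlap, and URE-LSK overlapped WT-GMP. URE over WT was 1.57 ± 0.21 (adjusted p = 1.02e-05) for LSK and 0.62 ± 0.20 (adjusted p = 0.0135) for GMP on the log2 scale, and from LSK to GMP it was 1.38 ± 0.21 in WT (adjusted p = 4.93e-05) and 0.43 ± 0.20 in URE (adjusted p = 0.0649). The interaction of -0.95 ± 0.29 (adjusted p = 0.0340) did not reach 2-fold, and did so with GC content offsets (-1.01) and without URE-LSK replicate 2 (-1.13), WT-GMP replicate 3 (-1.02) or WT-LSK replicate 1 (-1.02). So at 1 gene the promoter was lower and an intronic region higher in the same URE-LSK libraries.

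Fcer1g +8.0 kb, over an untranslated exon of Apoa2, was lower in URE in both cell types, at 0.525, 0.571 and 0.362 CPM for WT-LSK, 0, 0.0558 and 0 for URE-LSK, 2.59, 2.64 and 1.73 for WT-GMP, and 0.0646, 0.121 and 0.0969 for URE-GMP. In LSK 52 counts in WT faced 2 in URE, a 28.9-fold difference (95% exact counting interval 7.60 to 245). The fitted log2 value of -4.64 was -7.33 without URE-LSK replicate 2, the only library of its group with counts, and -4.05 without replicate 3. In GMP the log2 fold change was -4.55 ± 0.46 (adjusted p = 7.58e-07). The step from LSK to GMP in URE rested on 14 against 2 counts, 6.0-fold (1.38 to 54.4), and its adjusted p of 0.0268 was 0.0856 without URE-GMP replicate 2 and 0.0933 or 0.102 when replicate 1 or 3 of URE-LSK was left out. Its fitted log2 value of 2.36 was 5.05 without URE-LSK replicate 2. At the Fcer1g promoter the step in WT was 1.07 ± 0.22 (adjusted p = 0.000723), and it was 0.92 to 0.99 without WT-LSK replicate 1 or 2 or WT-GMP replicate 1 or 2.

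Fcgr1 -6.9 kb, upstream of the high-affinity receptor, was lower in URE in both cell types, at 4.88, 5.87 and 4.56 CPM for WT-LSK, 0.976, 1.79 and 2.05 for URE-LSK, 14.7, 19.1 and 17.8 for WT-GMP, and 2.39, 6.26 and 2.42 for URE-GMP. Replicates 1 and 3 of the URE-GMP libraries lay close to the URE-LSK libraries and replicate 2 lay above them. On the log2 scale the genotypes differed by -1.66 ± 0.34 within LSK (adjusted p = 0.000648) and by -2.21 ± 0.32 within GMP (adjusted p = 2.64e-05), the latter -2.84 without URE-GMP replicate 2. The step to GMP was 1.76 ± 0.32 in WT (adjusted p = 0.000231) and 1.21 ± 0.34 in URE (adjusted p = 0.00496), and the step in URE was 0.58 (adjusted p = 0.0651) without URE-GMP replicate 2, 0.95 without URE-LSK replicate 1 and 0.94 with GC content offsets.

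Fcgr3, the CD16 part of the gate, had no region within its window of 53.8 kb, so no value can be given for it. The share of its window made of 32-base stretches that recur elsewhere in the genome was 41.7%, against 23.3% for Fcgr2b, 13.7% for Fcgr1, 9.70% for Fcgr4 and 4.44% for Fcer1g. Within the gene bodies these shares were 22.4%, 10.8%, 8.82%, 10.6% and 6.65%. The part that repeats have in the missing regions was not tested.

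Summed over its window, each gene gave 1 value per library. Fcgr2b read 31.8 ± 1.32 CPM for WT-LSK, 15.3 ± 1.33 for URE-LSK, 70.8 ± 6.93 for WT-GMP and 88.2 ± 5.26 for URE-GMP (mean ± SD, n = 3). Fcgr4 read 13.8 ± 0.505, 4.14 ± 1.25, 43.7 ± 12.7 and 68.5 ± 3.09 in the same order, and Fcgr1 read 24 ± 2.10, 4.23 ± 0.925, 32.4 ± 1.79 and 8.37 ± 3.04. In LSK the URE sum was lower for these 3 genes, at a log2 ratio of -1.06 for Fcgr2b, -1.73 for Fcgr4 and -2.50 for Fcgr1. In GMP it was 0.32 for Fcgr2b, 0.65 for Fcgr4 and -1.95 for Fcgr1. Each of these 6 comparisons had an exact two-sided permutation p of 0.1, the smallest that 3 against 3 libraries allow. With scaling by library size only, the Fcgr2b ratio in GMP was 0.195 (exact permutation p = 0.2). In GMP most of the Fcgr4 sum lies in its -1.5 kb region, and over the gene body alone, which holds the promoter region only, the log2 ratio was -1.68. The Fcer1g window includes promoters of neighbouring genes with higher counts than its own, with log2 ratios of 0.20 in LSK and 0.23 in GMP, and over its 3 regions in the gene body the ratios were 0.23 (exact permutation p = 0.6) and 0.19 (exact permutation p = 0.4).

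By promoter pattern, the genes most like each member over the 12 libraries, out of 16212 promoters compared, were found by Pearson's r of log2(CPM + 1). For Fcgr2b they were Scimp (r = 0.995), Alox5ap (0.995) and Cd33 (0.989). For Fcgr4 they were H2-DMb2 (0.987), Rab39 (0.984) and Clec12a (0.982). For Fcer1g they were B430306N03Rik (0.988), Prss57 (0.986) and Gm15736 (0.984), and for Fcgr1 they were Gm9823 (0.993), Gm49038 (0.991) and P2ry13 (0.991). The 12 libraries form 4 groups, so these values mostly describe 4 group levels.

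Genes that act with the receptors were each represented by their most counted region no further than 5 kb from a start, which 36 of 43 genes had. In URE-LSK 2 (5.56%) were higher and 8 (22.2%) lower, against 13.6% and 23.9% of all regions. In URE-GMP none was higher and 7 (19.4%) were lower, against 15.6% and 24.1%. The shares of lower genes were thus near those of all regions. Of the 13 activating signalling genes, only Card9, an adaptor downstream of Syk, was called between genotypes. Card9 read 15.1 CPM for WT-LSK, 2.58 for URE-LSK, 27.5 for WT-GMP and 26.7 for URE-GMP, a log2 fold change of -2.54 ± 0.17 (adjusted p = 1.14e-08) within LSK and -0.04 ± 0.15 (adjusted p = 0.819) within GMP, with an interaction of 2.49 ± 0.23 (adjusted p = 9.58e-06). The kinases Lyn, Fgr, Syk and Btk were not called, with log2 fold changes from -0.76 to 0.24, and the Btk value was read at the promoter of Rpl36a.

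Of the 9 inhibitory signalling genes, 2 were lower in both cell types, namely Pirb, a paired immunoglobulin-like receptor (log2 fold change -4.30 ± 0.31 in LSK and -1.79 ± 0.26 in GMP), and Cd300a, another ITIM receptor (-4.96 ± 0.42 and -3.15 ± 0.34). Both had a called interaction, of 2.52 ± 0.39 and 1.81 ± 0.54. Lilrb4a, also an ITIM receptor, was higher in URE-LSK at 1.16 ± 0.20. The phosphatases themselves were not called, with Inpp5d at -0.39 in LSK and -0.20 in GMP. Among them, Ptpn6 was read at the promoter of Grcc10 and Rnu7, and Inppl1 at that of Gm10602. Of 9 of 13 other Fc receptors with a region, 3 were lower in both cell types, namely Fcrla (-3.66 and -2.92), Fcrl1 (-2.82 and -3.58) and Fcmr, the receptor for IgM (-1.84 and -2.36). Of 5 of 8 other ITAM chains, Cd79a (-1.76 and -2.01) and Cd79b (-2.28 and -2.42), the signalling chains of the B cell receptor, were lower in both, Cd247 was higher in LSK (1.24), and Tyrobp, another ITAM chain of myeloid cells, was at 0.53 and 0.65, under 2-fold. The values of Fcrla, Fcmr, Cd79a, Cd79b and Tyrobp were read at regions that are not within 500 bp of a start, so they are not promoter values.

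**Figure D4:**
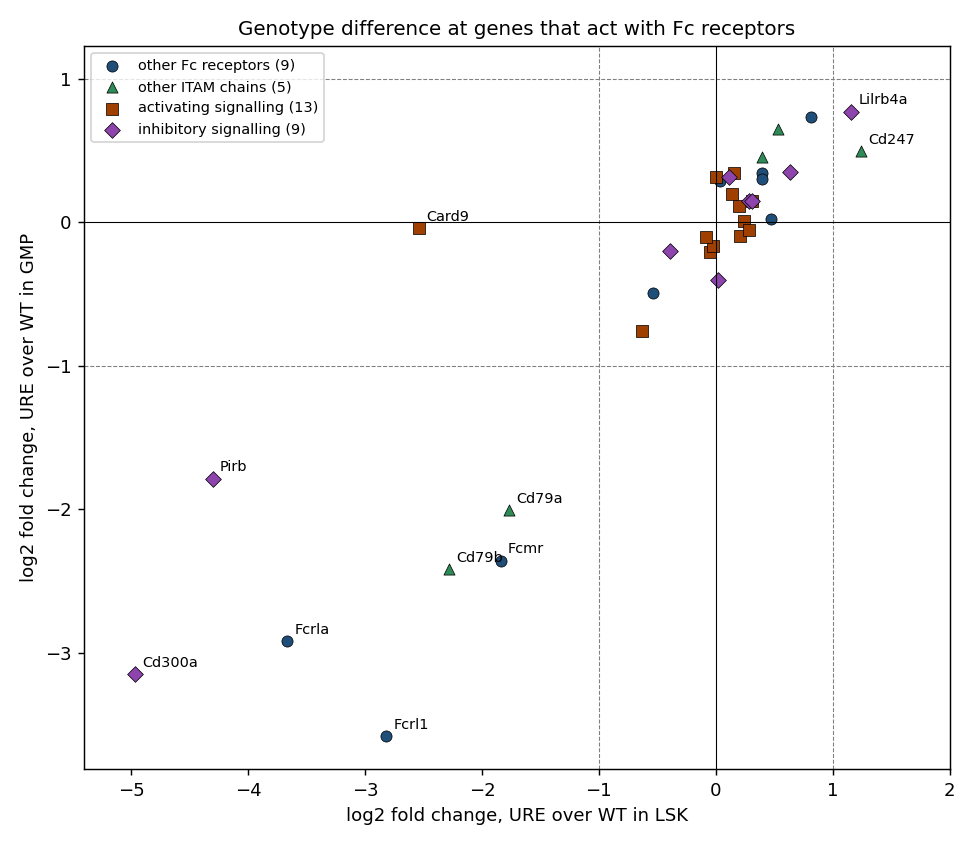
Genotype difference (log2 fold change of URE over WT) in LSK (horizontal axis) and in GMP (vertical axis) for the 36 genes that act with Fc receptors, by list (symbol and colour, with the number of genes), and with names for those called in either cell type. Most points lie within 2-fold of 0 in both, Card9 lies at -2.54 in LSK and -0.04 in GMP, and Cd300a is lowest in LSK at -4.96.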

How the data were processed

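OmniATAC libraries came from LSK and GMP sorted from WT and URE mice, 3 mice per genotype and cell type. The authors used cutadapt for trimming and Bowtie2 for mapping, with GRCm38 as the genome. By their methods, duplicate reads and those outside the primary chromosomes were discarded. It covers the union of Genrich peak sets, 1 per group, counted by featureCounts. The authors deposited raw counts per region and library, and whether fragments or ends were counted is not given in the sources used here. Every count column belonged to a library, so 0 columns were left out. Interval starts were read as 0-based and are printed 1-based.

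Regions were placed on GENCODE M21 genes. Counts were tested with edgeR 4.0.16 (R 4.3.3, limma 3.58.1) by the quasi-likelihood test with TMM scaling, 1 coefficient per group over 12 libraries and Benjamini-Hochberg adjustment over 121336 regions. The filter on low counts removed no region. A region was called at an adjusted p under 0.05 and an absolute log2 fold change over 1. Standard errors are the log2 fold change divided by the square root of the F statistic. The fit was also run on simulated counts with 1 spread for all regions, few changed regions and no shared deviations between libraries. These settings differ from the data, so that run cannot show how the fit performs here. The tests set each difference against the spread of libraries within groups, estimated in 1 fit over all 12 libraries.

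The members and lists were chosen with earlier results of these data known. Regions named were promoters (within 500 bp of a start), the region of each gene with the highest mean CPM, the smallest p per comparison, all interaction calls and all regions called in the same direction in both cell types. A few others are named where a count is small, chosen after their values were seen. The PU.1 core was also added after the values were seen. Summed CPM was compared by exact permutation tests in scipy 1.17.1. Intervals of low counts cover counting error only.

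Same-numbered libraries deviated together in some pairs of groups, with correlations of 0.235 to 0.272 between WT-GMP and WT-LSK and 0.127 to 0.327 between URE-GMP and URE-LSK. Between URE-GMP and WT-LSK they were 0.117 to 0.219. Between URE-GMP and WT-GMP they were 0.122 to 0.442. There, URE-GMP replicate 2 and WT-GMP replicate 1, with unlike numbers, had 0.195, above the 0.122 of the libraries numbered 1. In other pairs same-numbered libraries did not deviate together, at -0.113 to 0.161 between URE-LSK and WT-LSK and -0.117 to 0.0531 between URE-LSK and WT-GMP. The labels do not say what a number marks. Some neighbouring or signalling genes and 1 sequence are not reported here. Alternatives were other scalings, GC content and loess offsets, filters, thresholds, window sizes, DESeq2 1.42.0, the replicate block and leaving out each library.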

Additional observations from a re-analysis of the deposited data

Results flagged for a closer look

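At 11 of the 30 regions the genotype difference itself differed between the cell types, by the interaction test in edgeR with adjustment over all regions. The log2 fold change in GMP minus that in LSK was 3.37 at the Fcgr2b promoter, 2.35 at Fcgr2b +3.3 kb, 2.16 at Fcgr2b +23.1 kb, 1.86 at Fcgr2b -8.7 kb, 1.71 at Fcgr2b +8.8 kb and 1.32 at Fcgr2b +34.8 kb. It was 2.25 at the Fcgr4 promoter, 2.20 at Fcgr4 -12.4 kb and 1.65 at Fcgr4 -1.5 kb. It was 2.02 at the Fcgr1 promoter and 1.84 at the Fcer1g promoter. At Fcgr2b +34.8 kb the value came from a gain in GMP, and at Fcgr4 -1.5 kb from a lower level in LSK and a higher level in GMP.

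Among the 36 genes that act with Fc receptors, 3 (8.33%, against 8.96% of all regions) had a higher value in GMP by the same test, namely Pirb at 2.52, Card9 at 2.49 and Cd300a at 1.81.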

How the results depend on the processing

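Of 71 called values of the named regions, 63 stayed past the thresholds in the alternative fits at the same adjusted p that gave a value for them, and none of the 71 changed direction in these. For 19 of the 71 at least 1 alternative gave no value, as where a region was removed by the requirement of a mean CPM of at least 2. Of the 30 regions, 18 were called between genotypes in LSK, 14 in GMP, 18 in the step in WT, 21 in the step in URE and 11 in the interaction. With the window cut to 5 kb, which leaves fewer regions, these counts were 11, 6, 11, 13 and 7, and in the gene body alone they were 8, 2, 6, 8 and 6. In GMP the count was 8 when a mean CPM of at least 2 was required and 22 with no fold threshold. The replicate block gave 18, 14, 18, 21 and 12 calls, adding Fcgr4 -11.8 kb to the interaction, and changed no other call. The ratio of the Fcgr4 sum in GMP turned to -1.68 in the gene body, which holds its promoter only, and that of the Fcgr1 sum in the step in WT was -0.24 in the gene body and at 5 kb. Under loess offsets Fcer1g +11.6 kb turned to -0.014 in LSK and -0.0084 in GMP, and the cause was not tested. The uncalled LSK value of Fcgr2b +34.8 kb ranged from -0.056 to 0.27 when single libraries were left out. With library size only, the median of all regions moved from 0.14 to 0.017 in LSK and from 0.055 to -0.064 in GMP. At 3 counts, the depth limits values under 0.126 CPM.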
